A study of Mus musculus with 10 samples.

Results

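The genes of the ATF4 integrated stress response were followed in 10 cultures of immortalized MEFs, fibroblasts taken from mouse embryos. The set holds 35 named genes out of 26401 genes in the count table, and all 35 were found there by Ensembl identifier. They were chosen by symbol from knowledge of the pathway, with earlier results of these data known. All populations carried the m.5024C>T change of mitochondrial DNA, which lies in the gene for the mitochondrial alanine tRNA, and C57Bl/6N is the strain the labels give. They were grown, with no drug named, in high-glucose DMEM with 10% serum and 50 µg/ml uridine, a supplement that lets cells with weak respiration make pyrimidines. The 5 high heteroplasmy populations, with a high share of mutant mitochondrial genomes, are Clone_26, Clone_44, Clone_59, Clone_62 and Clone_83, called high 1 to high 5 here. The 5 low heteroplasmy populations are Clone_12, Clone_33, Clone_48, Clone_101 and Clone_109, called low 1 to low 5. Each population gave 1 poly(A) library. Each is a clone, so differences between clones that have nothing to do with the mutant share are part of every value, and the labels used here give neither a clone's mutant share nor how the clones were made. No population without the mutation was analysed here.

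The integrated stress response begins when kinases such as GCN2, PERK and HRI phosphorylate the translation factor eIF2, which slows protein synthesis in general and raises translation of ATF4. ATF4 is a transcription factor that pairs with C/EBP proteins and switches on genes for amino acid uptake, amino acid synthesis and tRNA charging, and, when stress lasts, genes such as Ddit3 and Trib3 that limit growth or survival. Defects of mitochondrial translation and respiration are a known trigger of this programme in mammalian cells, where the mitochondrial protease OMA1 and its substrate DELE1 relay the signal to HRI. ATF4 itself is controlled mainly at the level of translation, so its mRNA reports only part of its activity.

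Totals ran from 19264064 to 28208576 counts in the high and from 17318372 to 24967748 counts in the low libraries. The ribosomal RNA-like transcript Gm42418 stood at 40940 CPM in low 2 and 8017 CPM in low 3, against 745 to 1616 CPM in the other libraries. CPM are counts per 1000000 counts of a library's scaled total. The 9 fibroblast markers summed to 9417 to 19644 CPM in the high and 11559 to 13434 CPM in the low libraries. They did not behave alike. Col1a1 ran from 3310 to 7321 CPM in the high and 3435 to 5863 CPM in the low libraries. Col1a2 ran from 1.98 to 614 and from 72.9 to 886 CPM, and Pdgfra from 0.266 to 50.9 and from 2.12 to 9.29 CPM. Thy1, not tested, ran from 0 to 56.8 CPM in the high and reached at most 0.326 CPM in the low libraries. Of the 8 fibroblast markers tested, 0 were called. Markers of epithelium (5 genes) summed to 113 to 510 CPM in the high and 453 to 672 CPM in the low libraries, and those of adipocytes (3 used) to 4.19 to 79.8 CPM in the high and 0.911 to 3.39 CPM in the low libraries. Krt18 and Fabp4 were called higher (adjusted p = 0.00895 and 0.018; limma-voom called neither), Krt18 with 2.27 to 294 CPM in the high and at most 0.598 CPM in the low libraries, and Fabp4 with 4.19 to 79.7 CPM in the high and 0.911 to 3.35 CPM in the low libraries. The other 3 epithelial markers tested were lower in value: Krt19, with 109.5 to 384 CPM in the high and 442 to 666 CPM in the low libraries, was at -1.39 (adjusted p = 0.0509), Krt8 at -1.36 and Cdh1 at -2.72 (adjusted p = 0.0926 for each). DESeq2 called all 3 lower, and limma-voom called Krt19 lower. The 4 endothelial markers stayed at or below 1.42 CPM in the high and 1.72 CPM in the low libraries, with Cdh5 at 0. Among leukocyte markers, Ptprc was at 0 and Cd68 gave 11.7 to 89.97 CPM in the high and 12.3 to 26.02 CPM in the low libraries. The part of these differences in the results was not tested, and in bulk RNA fewer cells of a type and less RNA per cell cannot be told apart.

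Between high and low populations, 0 of the 34 members tested were called higher in the high ones, and 1, the amino acid transporter gene Slc38a2, fell. Calls are those of edgeR's quasi-likelihood test at a p below 0.05 after Benjamini-Hochberg adjustment over 12964 genes. Of all genes tested, 1.99% were called higher and 2.87% lower, 4.86% together, so the members' share of calls, 2.94%, was no larger than the background. Most members nonetheless had lower values in the high populations: 28 of 34 (82.4%) had a log2 fold change below 0, against 47.7% of all genes. The median log2 fold change was -0.42 over the members and 0.02 over all genes. These shares and medians describe the list and are no test, because the members were chosen with earlier results of these data known. At an unadjusted p under 0.05, 9 members were lower and 0 higher, where 11% and 10.6% of all genes were. DESeq2 called 0 members higher and 4 lower (Slc38a2, Aars, Slc7a5 and Stc2), where it called 5.28% of all genes higher and 6.09% lower. With limma-voom 0 were higher and 2 lower (Slc38a2 and Stc2), where 1.8% and 3.49% of all genes were. The high and low values did not overlap for 1 member, Slc38a2, against 7.17% of all genes in either direction and 4.17% with the high values below. The median of the members shrank to -0.27 without low 3, with 25 of 34 below 0.

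**Figure D1:**
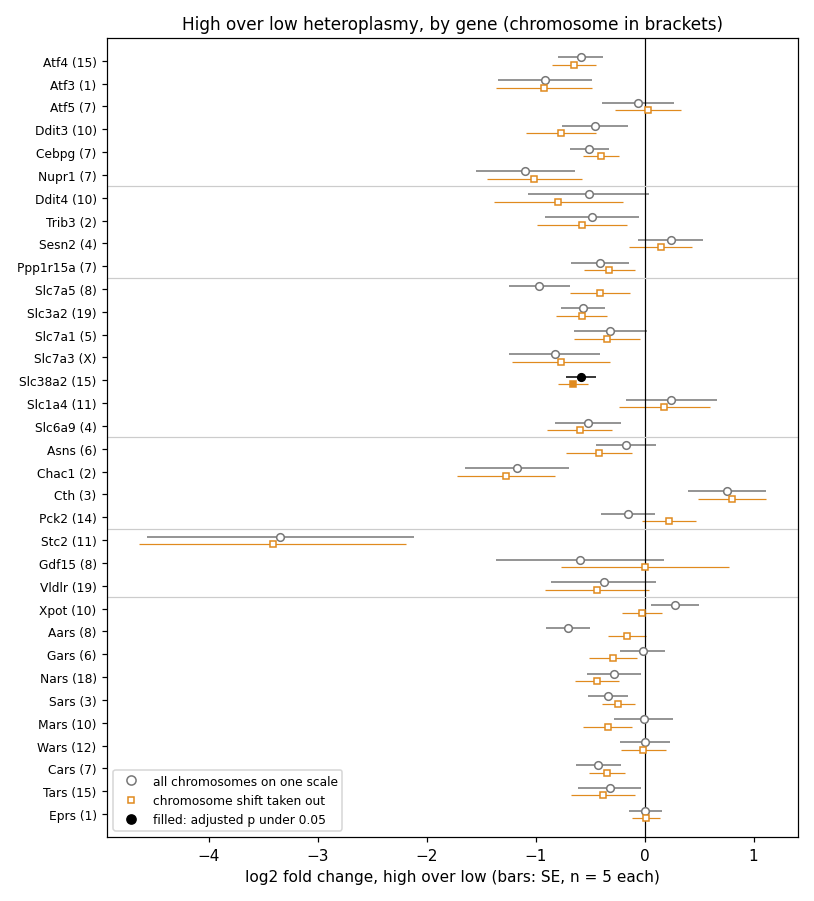
Log2 fold change of the 34 tested genes, high over low heteroplasmy, on the x axis, with the SE as bars (n = 5 libraries each) and the chromosome of each gene in brackets. Circles are the values with all chromosomes on 1 scale and squares those with each library's chromosome-wide shift taken out. Most points lie left of 0, Slc38a2 is the filled one on both scales, and Slc7a5, Aars and Gdf15 on chromosome 8 move toward 0 on the second.

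Per kilobase of exon, pooled over all annotated transcripts of a gene, Atf4 had the highest group mean of the members in both groups. Its mean was 127 CPM per kilobase in the high and 190.1 CPM per kilobase in the low populations. Sars, for seryl-tRNA charging, followed with 123 and 155 CPM per kilobase. At the other end lay the secreted factor gene Stc2, at 0.067 in the high and 0.683 CPM per kilobase in the low populations, with Fgf21 at 0.323 and 1.67 and Slc7a3 at 0.618 and 1.09. These low members therefore rest on few reads.

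The DNA letters through which ATF4 and its C/EBP partners act, the C/EBP-ATF response element TGATGNAA, were looked up in RefSeq promoters (GRCm38.p6, 250 bases before to 50 after the start site, both strands). Of 29 members with an entry (Slc7a5, Slc7a3, Cth, Nars, Wars and Cars had none), 12 held the element, 41.4%, against 4.51% of the 27025 symbols in the promoter table. Matches of 11 members, not the full set, are shown with 10 bases on each side, on the strand that reads TGATGNAA. The element is in capitals, and the search fixed all its letters but N, so only N and the flanks can differ.
Atf3, chr1:191183426-191183453, plus strand: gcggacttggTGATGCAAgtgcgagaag
Nupr1, chr7:126625563-126625590, plus strand: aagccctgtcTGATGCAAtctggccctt
Trib3, chr2:152344029-152344056, plus strand: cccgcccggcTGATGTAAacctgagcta
Slc1a4, chr11:20332700-20332727, plus strand: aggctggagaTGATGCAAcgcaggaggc
Asns, chr6:7693215-7693242, minus strand: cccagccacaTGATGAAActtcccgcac
Chac1, chr2:119351039-119351066, minus strand: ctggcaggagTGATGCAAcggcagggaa
Pck2, chr14:55540153-55540180, minus strand: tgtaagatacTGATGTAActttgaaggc
Fgf21, chr7:45615612-45615639, plus strand: cctggacggaTGATGCAAtgggggggtc
Vldlr, chr19:27216810-27216837, minus strand: ctaggagcgcTGATGCAActattgctgc
Gars, chr6:55037961-55037988, minus strand: gcccggtgcaTGATGAAAtagcgcagcc
Tars, chr15:11399656-11399683, plus strand: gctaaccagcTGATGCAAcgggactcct
The ending is TGATGCAA in Atf3, Nupr1, Slc1a4, Chac1, Fgf21, Vldlr and Tars, TGATGTAA in Trib3 and Pck2 and TGATGAAA in Asns and Gars. Seen along each gene, the first base of the element lay 110 bases before the start site in Atf3 and also in Nupr1, 103 in Pck2, 139 in Fgf21, 193 in Chac1 and 200 in Vldlr. It lay 30 bases before it in Gars, 23 in Asns, 15 in Tars and 4 in Slc1a4, and 15 bases into the transcript in Trib3. Of all 12 members with the element, the 11 tested (all but Fgf21) had a median log2 fold change of -0.38 (10 below 0), and the 17 tested whose window lacks these letters had -0.46 (14 below 0). A cAMP response element, TGACGTCA, was found in 1 member, Ppp1r15a (2.03% of symbols). A match of letters is a description and not a bound site. Letters outside the window were not looked up, so a window without a match does not show that the gene lacks the element.

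Among the 6 transcription factors, 0 were called by edgeR, DESeq2 or limma-voom, 3 were lower at an unadjusted p under 0.05, and all 6 had log2 fold changes below 0, from -1.09 to -0.06, with a median of -0.55. Atf4 (ENSMUSG00000042406, chr15:80255184-80257541 in GRCm38) had 241, 324, 247, 334 and 346 CPM in high 1 to high 5, against 435, 329, 636, 511 and 330.5 CPM in low 1 to low 5. The high values lay between 241 and 346 and overlapped the lower part of the low group, where low 3 and low 4 stood highest; the log2 fold change was -0.59 (SE 0.21, adjusted p = 0.125). Cebpg, a C/EBP protein that pairs with ATF4, had 33.2, 44.6, 29.6, 47.8 and 35.7 CPM in high 1 to high 5, against 54.2, 42.3, 63.4, 64.3 and 47.0 CPM in low 1 to low 5. All 5 high values were below the low mean, but high 2 and high 4 exceeded low 2 and high 4 also low 5, and the log2 fold change was -0.51 (SE 0.18, adjusted p = 0.124).

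Ddit3 encodes CHOP, the factor that ATF4 brings on under lasting stress. It had 53.9, 31.7, 34.4, 63.2 and 41.2 CPM in high 1 to high 5, against 56.9, 45.8, 105, 67.7 and 32.5 CPM in low 1 to low 5. The groups overlapped over most of their range (log2 fold change -0.46, SE 0.30, adjusted p = 0.419); Ddit3 shares 68 exon bases with the opposite-strand gene Mars, 3.97% of its exon length. Atf3, a stress-induced repressor of the same bZIP class, had 123, 49.0, 69.5, 42.0 and 24.5 CPM in high 1 to high 5, against 76.1, 203, 88.6, 144 and 68.4 CPM in low 1 to low 5. High 1 was above 3 of the low values, and the other high populations were at 69.5 CPM or below (-0.91, SE 0.43, adjusted p = 0.252). Nupr1, a small stress-induced chromatin protein, had 199.5, 33.1, 55.4, 100.98 and 43.5 CPM in high 1 to high 5, against 205, 134, 255, 138 and 191 CPM in low 1 to low 5. Its 4 other high values were below every low value, whereas high 1 was above low 2, low 4 and low 5, and the log2 fold change was -1.09 (SE 0.45, adjusted p = 0.188). Without high 1, Nupr1 was called lower, at -1.66 (adjusted p = 0.0245). Atf5, a relative of ATF4 linked to the mitochondrial unfolded protein response, was at -0.06 (adjusted p = 0.947). The stretch of 250 bases before the Nupr1 start site is printed on the gene's strand because this gene had the lowest fold change of the factors; the element appears there in reverse complement, in capitals.
Nupr1, chr7:126625471-126625720, minus strand: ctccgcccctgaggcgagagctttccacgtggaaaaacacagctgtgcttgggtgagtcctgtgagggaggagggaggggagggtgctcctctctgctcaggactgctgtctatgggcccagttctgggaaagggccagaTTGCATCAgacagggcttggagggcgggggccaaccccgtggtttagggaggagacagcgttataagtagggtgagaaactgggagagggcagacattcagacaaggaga

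**Figure D2:**
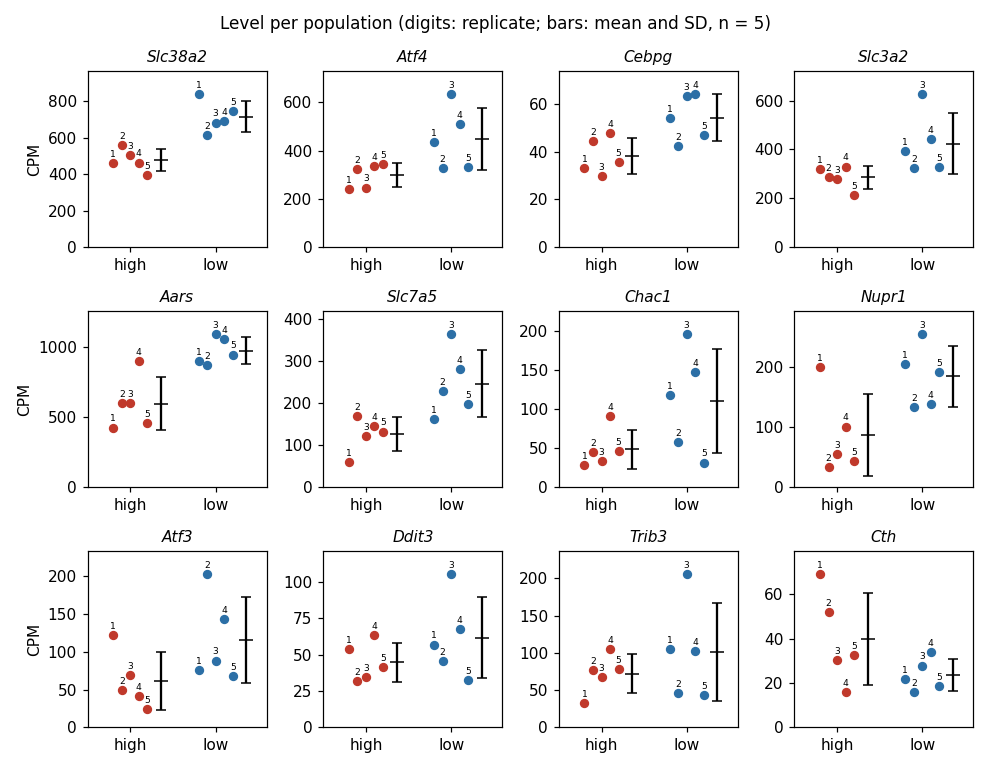
CPM (y axis, from 0) of 12 genes in each population, high in red left of low in blue, with digits for the replicate and black bars for the mean and SD (n = 5 each). Slc38a2 is the gene without overlap, from 394 to 561 CPM in the high and from 617 to 842 CPM in the low populations, and low 3 tops Atf4, Slc3a2, Aars, Slc7a5, Chac1, Nupr1, Ddit3 and Trib3.

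The 4 signalling and feedback regulators gave 0 calls with each of the 3 tools and 0 at an unadjusted p under 0.05, with a median log2 fold change of -0.45. Trib3, a pseudokinase that restrains ATF4 and AKT, had 32.7, 76.9, 67.4, 105 and 78.5 CPM in high 1 to high 5, against 105, 46.6, 206, 103 and 43.5 CPM in low 1 to low 5. Low 3 stood far above the rest, while low 2 and low 5 were below all high populations but high 1; the log2 fold change was -0.48 (SE 0.43, adjusted p = 0.568) and -0.05 without low 3. Ddit4, an inhibitor of mTORC1 signalling, ran from 53.3 to 214.9 CPM in the high and from 44.04 to 359 CPM in the low populations (-0.51, adjusted p = 0.654, and -0.0073 without low 3). Ppp1r15a, the GADD34 subunit that directs eIF2 dephosphorylation, ran from 42.5 to 109.7 and from 58.2 to 115 CPM (-0.41, adjusted p = 0.417). Sesn2, a leucine sensor that also restrains mTORC1, was the 1 regulator above 0, at 0.24 (adjusted p = 0.706).

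Among the 7 amino acid transporters, Slc38a2 fell and 0 rose, and 6 had log2 fold changes below 0. Slc38a2 encodes SNAT2, a sodium-coupled carrier of neutral amino acids such as glutamine and alanine that cells induce when amino acids run short. The gene (ENSMUSG00000022462) lies at chr15:96687392-96699730, minus strand. It had 463, 561, 507, 464 and 394 CPM in high 1 to high 5, against 842, 617, 684, 692 and 747 CPM in low 1 to low 5. Every high population was below every low one, with means of 478 ± 61.6 and 716 ± 83.8 CPM (SD, n = 5 each). The log2 fold change was -0.58 (SE 0.14, adjusted p = 0.0394), and with the chromosome shifts taken out it was -0.65 (adjusted p = 0.0491). With 1 library left out the fold change kept between -0.65 and -0.52, but the call was kept only without high 2 (adjusted p = 0.0459). It was lost without high 1 (0.0517), high 3 (0.0752), high 4 (0.0557), high 5 (0.0673), low 1 (0.0917), low 2 (0.0612), low 3 (0.0746), low 4 (0.0758) or low 5 (0.0753). Upper-quartile scaling also ended it (0.051), as did no filter on low counts (0.0789), the number in the sample code as a term (0.0811) and leaving out low 2 and low 3 together (0.106). Its 250 bases before the start site are shown as those of the called member, on the gene's strand; they hold no TGATGNAA.
Slc38a2, chr15:96699729-96699978, minus strand: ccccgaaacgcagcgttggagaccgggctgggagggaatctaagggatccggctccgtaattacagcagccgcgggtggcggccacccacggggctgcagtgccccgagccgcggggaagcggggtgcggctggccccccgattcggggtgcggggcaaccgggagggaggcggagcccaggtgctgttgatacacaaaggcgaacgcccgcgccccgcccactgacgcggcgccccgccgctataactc

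Slc7a5 and Slc3a2 encode the light and the heavy chain of the LAT1 exchanger, which brings leucine and other large neutral amino acids into the cell. Slc7a5 had 60.9, 169.8, 122, 145 and 133 CPM in high 1 to high 5, against 162, 228, 365, 281 and 197 CPM in low 1 to low 5. High 2 was above low 1 and the other high populations were below all low ones, giving a log2 ratio of -0.97 (SE 0.28, adjusted p = 0.0725). Slc7a5 lies on chromosome 8, whose genes were lower as a block in the high populations (median shift -0.57 on the log2 scale, high minus low). With that shift taken out its log2 fold change was -0.41 (adjusted p = 0.478). Slc3a2, on chromosome 19, had 318, 288, 279.8, 329.8 and 212 CPM in high 1 to high 5, against 394, 326, 628, 444 and 327 CPM in low 1 to low 5. Here only high 4 reached the low range, at its lower end, and the log2 fold change was -0.57 (SE 0.20, adjusted p = 0.129) and -0.58 with the shifts taken out (adjusted p = 0.226).

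The other 4 carriers gave 0 calls with edgeR, DESeq2 and limma-voom, and 0 at an unadjusted p under 0.05. Slc7a3, a cationic amino acid carrier, gave 18 to 85 counts per library in the high and 57 to 120 counts in the low populations (-0.83, adjusted p = 0.278). The log2 fold changes were -0.52 for the glycine carrier gene Slc6a9, -0.31 for the arginine carrier gene Slc7a1 and 0.25 for Slc1a4, an exchanger of alanine, serine and cysteine, with adjusted p values of 0.35, 0.65 and 0.794. Slc6a9 shares 27.8% of its exon length with the opposite-strand gene Ccdc24, which had 170 counts in all libraries together against 13430 for Slc6a9.

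The 4 metabolic enzymes had 0 calls with each tool, 1 lower at an unadjusted p under 0.05 (Chac1), and a median log2 fold change of -0.16, with Chac1 and Cth at the 2 ends. Chac1, which breaks down glutathione, had 28.3, 45.1, 33.4, 91.2 and 46.1 CPM in high 1 to high 5, against 118, 57.7, 196, 147 and 31.6 CPM in low 1 to low 5. Low 1, low 3 and low 4 were above all high populations, but low 5 was below all of them except high 1, and the log2 fold change was -1.17 (SE 0.48, adjusted p = 0.181). Asns makes asparagine and is a standard readout of ATF4. It had 95.3, 281, 201, 241 and 162 CPM in high 1 to high 5, against 183, 156, 303, 239.6 and 220.5 CPM in low 1 to low 5. The groups covered the same range apart from the low value of high 1, giving a log2 ratio of -0.17 (SE 0.27, adjusted p = 0.781). Cth makes cysteine from cystathionine. It had 69.0, 51.8, 30.1, 15.7 and 32.5 CPM in high 1 to high 5, against 21.7, 15.9, 27.8, 33.7 and 18.5 CPM in low 1 to low 5. This was the highest fold change of the members, 0.76 (SE 0.36, adjusted p = 0.246), with high 4 the lowest library of all. Pck2, the mitochondrial enzyme that makes phosphoenolpyruvate, was at -0.15 (adjusted p = 0.783) and at 0.22 with the chromosome 14 shift taken out (adjusted p = 0.696). The 250 bases before the Chac1 start site are shown as those of the enzyme with the lowest fold change.
Chac1, chr2:119350992-119351241, plus strand: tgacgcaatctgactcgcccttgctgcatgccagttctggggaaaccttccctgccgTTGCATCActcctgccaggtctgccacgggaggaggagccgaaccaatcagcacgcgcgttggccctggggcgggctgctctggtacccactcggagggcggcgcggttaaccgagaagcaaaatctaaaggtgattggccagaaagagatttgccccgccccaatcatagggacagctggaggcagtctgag

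The stress hormones that mitochondrial disease is known to raise in blood, GDF15 and FGF21, are made by members of the set. Of the 4 genes for secreted factors and a receptor, 3 were tested, with 0 calls by edgeR, 1 (Stc2) at an unadjusted p under 0.05, and a median log2 fold change of -0.59. Gdf15 had 13.7, 6.75, 40.6, 16.7 and 7.95 CPM in high 1 to high 5, against 32.8, 23.0, 45.0, 27.9 and 0.653 CPM in low 1 to low 5. The groups overlapped, with low 5 alone near 0 (log2 fold change -0.59, SE 0.77, adjusted p = 0.722, and 0.0058 with the chromosome 8 shift taken out). Fgf21 had 7, 16, 7, 4 and 2 counts in high 1 to high 5, against 52, 4, 67, 32 and 5 counts in low 1 to low 5. Low 1, low 3 and low 4 carried most of its reads. It did not pass the expression filter, so it is absent from the counts of tested members; without a filter its log2 fold change was -2.36 (SE 0.78, adjusted p = 0.137). Stc2, a secreted glycoprotein induced by ER stress, had 0, 32, 0, 9 and 0 counts in high 1 to high 5, against 15, 29, 159, 139 and 36 counts in low 1 to low 5. A count of 0 allows up to 0.156 CPM in high 1, 0.112 in high 3 and 0.106 in high 5, from 3 counts of each total and for counting error only. The log2 fold change of -3.34 (SE 1.23, adjusted p = 0.141) was the lowest of the members, with high 2 above low 1; DESeq2 and limma-voom called it (adjusted p = 0.0492 and 0.0322). Without high 2 it was at -5.23 (adjusted p = 0.0563), and with limma-voom at -5.01. Vldlr, a lipoprotein receptor, was at -0.38 (adjusted p = 0.718).

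The 10 genes of tRNA charging and export, whose products load amino acids onto cytosolic tRNAs or carry tRNAs out of the nucleus, had 0 calls with edgeR, 1 with DESeq2 (Aars) and a median log2 fold change of -0.15; Aars was the 1 below an unadjusted p of 0.05. Aars, the cytosolic alanyl-tRNA synthetase gene, had 426, 598, 602, 901 and 459.7 CPM in high 1 to high 5, against 904, 871, 1094, 1056 and 947 CPM in low 1 to low 5. High 4 alone reached the low range, where it was above low 2, and the log2 fold change was -0.71 (SE 0.20, adjusted p = 0.0686). Aars lies on chromosome 8, and with its shift taken out the log2 fold change was -0.16 (adjusted p = 0.688). Without high 4, Aars was called lower, at -0.90 (adjusted p = 0.0162). It shares 14.3% of its exon length with Exosc6 on the same strand, a gene with no entry in the count table. Whether Exosc6 reads are part of the Aars counts was not tested. Cars had 114, 154, 124, 189.7 and 95.7 CPM in high 1 to high 5, against 188, 125, 212, 215 and 171 CPM in low 1 to low 5. The groups overlapped (-0.42, SE 0.21, adjusted p = 0.265). The other synthetase genes of the set ran from -0.33 for Sars to 0.01 for Eprs, with Nars at -0.28, Tars at -0.32, Gars at -0.02, Mars at -0.01 and Wars at 0.00. Their adjusted p values were 0.317 or above, and the signs of Gars, Mars, Wars and Eprs turned between settings. With the chromosome shifts taken out, Mars was at -0.34, Gars at -0.29, Nars at -0.44 and Sars at -0.24. Xpot, the tRNA exporter gene on chromosome 10, was at 0.28 (adjusted p = 0.504) and at -0.03 with the chromosome shift taken out. The median of all 10 genes was then -0.27, with 9 below 0 where 7 had been, and 0 were called.

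Of the members, 10 lie on the 4 chromosomes with the largest shifts among those that hold members. The median deviation of a chromosome's genes, high minus low, was -0.57 for chromosome 8 (3 members), -0.40 for chromosome 14 (1 member), 0.30 for chromosome 6 (2 members) and 0.28 for chromosome 10 (4 members). Outside chromosome 8, the median log2 fold change of 31 tested members was -0.38 (25 below 0), and that of the 3 on it was -0.71. With every chromosome's shift taken out the median of all 34 was -0.39 and 27 were below 0, while 1.27% of all genes were called. On chromosome 10, Ddit3 was then at -0.77 and Ddit4 at -0.79, and on chromosome 6 Asns was at -0.42, none of them called (adjusted p = 0.242, 0.532 and 0.509).

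The typical member varied more between clones than the typical gene. The median within-group SD of log2 CPM reached 0.46 in the high and 0.43 in the low populations for the 32 members with a mean log2 CPM above 3, against 0.35 and 0.27 for the 9477 genes above that level. High 1 was the lowest of the 10 libraries in 15 of 34 members (44.1%, against 15.8% of all genes). These were Atf4, Trib3, Slc7a5, Slc7a1, Slc1a4, Slc6a9, Asns, Chac1, Stc2, Xpot, Aars, Nars, Mars, Wars and Tars, with Stc2 at 0 counts in high 3 and high 5 as well. Low 3 was the highest in 16 members (47.1%, against 8.02% of all genes) and the lowest in 0 (9.74% of all genes). Low 4 was the highest in a further 8 (23.5%, against 10.3% of all genes). A low population was thus the highest in 27 of 34 members, where it was for 41.4% of all genes.

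**Figure D3:**
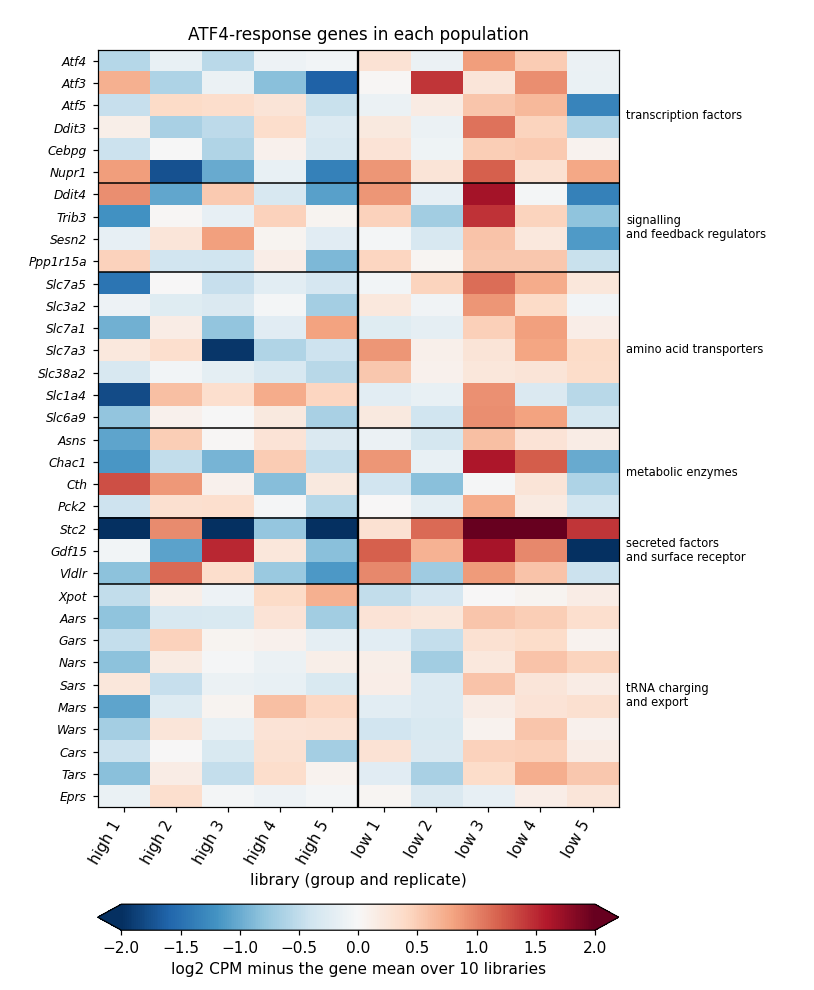
Log2 CPM of the 34 tested genes in each library minus the gene's mean over the 10 libraries (colour, clipped at 2), with genes grouped by role and the 5 high libraries left of the 5 low ones. High 1 is blue in most transporters, enzymes and synthetases, though not in Slc7a3, Cth and Sars, nor in Atf3, Ddit3, Nupr1, Ddit4 and Ppp1r15a, and low 3 is red in most rows.

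The roles differed in level within single clones. High 1 had a median deviation from the gene mean of -0.81 for the secreted factors and receptor and -0.79 for the transporters. For the enzymes it was -0.74, and for tRNA charging and export -0.59. In the same library the regulators had a median deviation of 0.15 and the transcription factors of -0.16, with genes of both roles at either end. Atf3 (123 CPM), Nupr1 (199.5 CPM), Ddit4 (214.9 CPM) and Ppp1r15a (109.7 CPM) were there the highest of the high group. So were Cth (69.0 CPM) and the synthetase gene Sars (820.4 CPM). The regulator Trib3 (32.7 CPM) and Atf4 (241 CPM) were instead the lowest of the 10 libraries in high 1. Sesn2 had 40.3 CPM there, within 38.4 to 79.6 CPM for the high group. Low 5 showed a different split: its regulators were at -0.97 and its enzymes at -0.49, whereas tRNA charging and export was at 0.20. Low 3 was above 0 in all 6 roles, from 0.26 for tRNA charging and export to 1.65 for the secreted factors and receptor. Across the groups, the transporters' median deviation averaged -0.32 ± 0.32 in the high and 0.38 ± 0.41 in the low populations, and that of the transcription factors averaged -0.29 ± 0.21 and 0.27 ± 0.33 (log2, SD, n = 5 each). For tRNA charging and export it was -0.05 ± 0.33 and 0.10 ± 0.29.

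**Figure D4:**
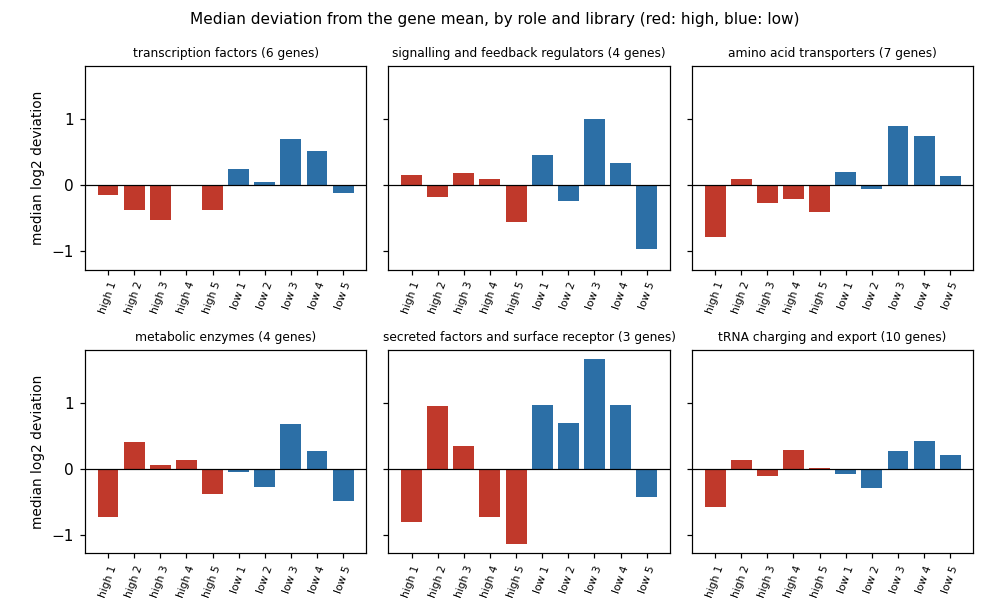
Median deviation of log2 CPM from the gene mean (y axis) in each library (x axis, high in red left of low in blue), with a panel for each role. Low 3 is above 0 in every panel, high 1 is below 0 in all but the regulators, and low 5 reaches -0.97 in the regulators.

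Genes of 6 other lists, of the pathway and of programmes outside it, gave 0 rises and 3 falls among 77 tested, and all 3 lie on chromosome 8. That is 3.90%, against 4.86% of all genes called in either direction and 2.87% called lower. At an unadjusted p under 0.05, 7 were higher and 13 lower, where 10.6% and 11% of all genes were. Of 6 further known ATF4 targets 2 fell, and the median of the 6 was -0.60. With the chromosome shifts taken out this median was -0.24, with 4 below 0 on both scales and 0 called. Eif4ebp1, a repressor of cap-dependent translation, had 88.0, 106, 97.0, 202 and 93.6 CPM in high 1 to high 5, against 283, 208, 387, 263 and 189 CPM in low 1 to low 5. High 4 alone was above a low value, that of low 5, and the log2 fold change was -1.18 (SE 0.27, adjusted p = 0.0338). It was called without high 1 (0.0492), high 4 (0.00841) or low 5 (0.0408), and not without high 2 (0.0701), high 3 (0.08), high 5 (0.0695), low 1 (0.0675), low 2 (0.0563), low 3 (0.0747) or low 4 (0.067). Herpud1, an ER membrane protein of protein degradation, had 43.1, 40.7, 34.7, 59.3 and 33.7 CPM in high 1 to high 5, against 136, 101.21, 212, 105 and 81.0 CPM in low 1 to low 5. The groups did not overlap (-1.59, SE 0.26, adjusted p = 0.0131), and the call held in all 10 fits with 1 library left out. With the chromosome shift taken out, Eif4ebp1 was at -0.64 (adjusted p = 0.206) and Herpud1 at -1.03 (adjusted p = 0.0646). Without low 2 and low 3 together, Herpud1 had an adjusted p of 0.0518 and Farsa, described next, 0.101.

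The other cytosolic synthetases and their scaffold proteins, 14 genes, had 1 fall, Farsa, for a subunit of the phenylalanyl-tRNA synthetase. Farsa had 90.5, 121, 126, 138 and 97.4 CPM in high 1 to high 5, against 168, 189, 193, 227 and 199.6 CPM in low 1 to low 5. The groups did not overlap (-0.77, SE 0.15, adjusted p = 0.0212), and the call held in all 10 fits with 1 library left out. With Herpud1, Qars and Calr, 4 of the 77 genes did not overlap between the groups (5.19%, against 7.17% of all genes). Qars was at -0.31 (adjusted p = 0.2). Kars, for lysyl-tRNA charging, was at -0.72 (adjusted p = 0.0659). Farsa and Kars lie on chromosome 8 and were at -0.21 and -0.19 with its shift taken out. DESeq2 called Farsa, Kars and Vars lower and limma-voom Farsa; Vars, for valyl-tRNA charging, on chromosome 17, was at -0.66 on both scales (adjusted p = 0.0992, and 0.119 with the shift taken out). Upstream of ATF4, the 19 genes for eIF2 kinases, their relay and eIF2 with its exchange factor had 0 calls (2 higher and 1 lower at an unadjusted p under 0.05; DESeq2 called Eif2b3) and a median of 0.20; Impact, an inhibitor of GCN2, was at 0.62 (adjusted p = 0.164) and Eif2b3, for a subunit of the eIF2 exchange factor, at 0.58 (adjusted p = 0.0892). The relay genes Oma1 and Dele1 were at 0.20 and 0.28 and the kinase gene Eif2ak1, for HRI, at 0.21 (adjusted p = 0.606, 0.462 and 0.432). With the shifts taken out Oma1, Dele1 and Eif2ak1 were at 0.11, 0.09 and 0.20. The median of the 19 genes was then 0.04, with 9 below 0. Serine, one-carbon and proline synthesis had 0 of 9 called (1 higher and 2 lower unadjusted; 0 by DESeq2) and a median of -0.06, with Psph, for the last step to serine, at -0.57 (adjusted p = 0.193) and Pycr1, for the last step to proline, at 0.83 (adjusted p = 0.19). With the shifts taken out the median of these 9 genes was -0.33, with 7 below 0 where 5 had been, and 0 were called. The ER unfolded protein response outside ATF4 had 0 of 17 called (2 higher and 1 lower unadjusted; DESeq2 called Calr) and a median of -0.22, with Calr, for an ER chaperone, at -0.60 (adjusted p = 0.0816) and Edem1, for ER-associated degradation, at 0.39 (adjusted p = 0.155). Calr lies on chromosome 8 and Edem1 on chromosome 6, and with the shifts taken out they were at -0.04 and 0.10 (adjusted p = 0.939 and 0.797). The median of the 17 genes was then -0.19, with 14 below 0 where 10 had been, and 0 were called. Mitochondrial chaperones and proteases had 0 of 12 called (2 higher and 1 lower unadjusted; DESeq2 called Spg7 and Htra2) and a median of 0.01, with Spg7, for an inner membrane protease, at -0.53 (adjusted p = 0.0898) and Htra2, for an intermembrane space protease, at 0.47 (adjusted p = 0.0902). With the shifts taken out, Spg7, on chromosome 8, was at 0.05 and Htra2, on chromosome 6, at 0.19. With limma-voom 0 genes of these 4 lists were called.

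**Figure D5:**
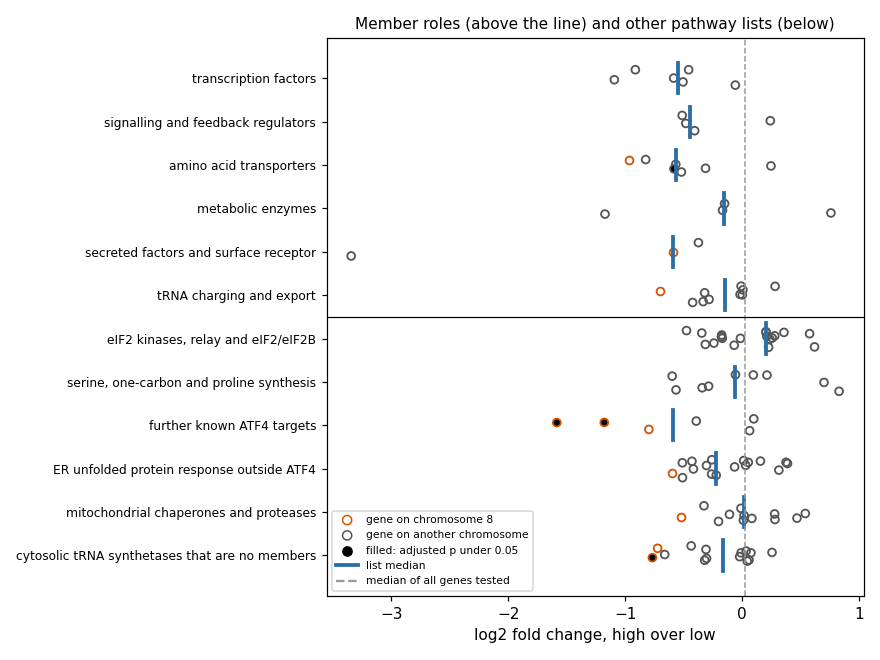
Log2 fold change (x axis, high over low) of each tested gene by list, with the 6 roles of the set above the line and the 6 other lists below it. Blue bars are list medians, the dashed line is the median of all genes, orange rings mark chromosome 8, and filled points are the 4 genes past the threshold: Slc38a2, Herpud1, Eif4ebp1 and Farsa.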

How the data were processed

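RNA of 10 fibroblast populations was compared, 5 high and 5 low, grouped and numbered by the sample titles, with the table's columns matched by the codes in the sample descriptions. Per the submitters' processing notes, GRCm38, STAR 2.7.8a, R 4.2.1 and DESeq2 1.36.0 were used; the counting program, its use of strand and its annotation are not stated in the labels or notes used here. The labels describe a directional kit. The authors deposited raw counts, 1 column per library. They also deposited a normalized signal, which equals the counts divided by 1 size factor per library and was used only for that check. GENCODE M21 (GRCm38) supplied gene names and left 195 of 26401 identifiers unnamed, with at most 0.0701% of a library's counts.

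Counts were tested with edgeR 4.0.16 in R 4.3.3: default expression filter by group, TMM scaling, robust quasi-likelihood F-tests with group as the only term, Benjamini-Hochberg over all genes tested, threshold 0.05, two-sided. SEs were taken as |log2 fold change| over the square root of F. CPM use the TMM-scaled library size, and log2 CPM a prior count of 2. Per library, a chromosome's shift is a median deviation: log2 CPM minus the gene's own median, taken for genes averaging above 3. Alternatives were RLE and upper-quartile scaling, 2 other filters, the replicate number and the sample code number as terms, the offset per chromosome, DESeq2 1.42.0, limma-voom (limma 3.58.1), a threshold of 0.1, each library left out, and low 2 with low 3 left out. The fit was also checked on simulated counts. Values in every library are given for called members, the 12 with the smallest p and 7 set by name, and of each other list for called genes; Oma1, Dele1, Eif2ak1 and Vars were added after their values were seen. The members and lists were chosen with earlier results of these data known. Same-numbered high and low libraries are not paired: their deviations from the group means correlated at -0.0528 to 0.455. Totals of 17318372 to 28208576 counts limit the precision of the lowest members. A marker gene and some promoter matches are not reported here. Figures were drawn with matplotlib 3.10.9.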

Additional observations from a re-analysis of the deposited data

Results flagged for a closer look

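In 68 groups of 5 libraries (34 tested members, high and low), 5 single libraries stood apart, which is about what chance gives, since it flags about 1 group in 20. Measured as the gap to the nearest library over the group's range in log2 CPM, these were Slc1a4 in high 1 (0.84; 8.03 CPM, against 35.3 to 46.7 CPM in the other high libraries) and Slc1a4 in low 3 (0.72; 52.6 CPM, against 19.0 to 25.3 CPM in the other low libraries). Gdf15 in low 5 had 0.837 (0.653 CPM, against 23.0 to 45.0 CPM). Nars in high 1 had 0.716 (223 CPM, against 363 to 441 CPM), and Eprs in high 2 had 0.804 (511 CPM, against 371 to 395 CPM). The causes were not tested.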

How the results depend on the processing

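In all alternatives run, 0 members were called higher. The number called lower, 1 as reported, was 0 with upper-quartile scaling, with no filter and without low 2 and low 3, 2 with the sample code number as a term (Aars and Slc7a5) and with limma-voom, 4 with DESeq2, 3 at a threshold of 0.1, and 0 to 1 with 1 library left out. With the replicate block it was 2 (Aars and Slc7a5), and Slc38a2 then had an adjusted p of 0.0744; the replicate numbers do not pair the libraries, and 2 of 5 high libraries correlated best with their own number. The median of the members ran from -0.54 to -0.27 with 1 library left out, lowest without low 5 and highest without low 3. Of 34 members, 22 were below 0 in every alternative and 10 changed sign in at least 1, none of them called. These were Atf5 (0.033 with the block, 0.028 with the chromosome offset, 0.038 with limma-voom, 0.14 without low 2 and low 3), Slc1a4 (-0.0033 with the code number), Pck2 (0.22 with the offset, 0.036 without low 2 and low 3), Gdf15 (0.0058) and Xpot (-0.026) with the offset, Gars (0.0048) and Mars (0.0077) with upper-quartile scaling, and Mars without a filter (0.014). Wars was at -0.0039 with the filter at 1 CPM in 5 libraries, -0.0050 with the block, -0.013 with the offset, -0.0049 with limma-voom and -0.074 without low 2 and low 3, and Eprs at -0.11 without low 2 and low 3. With 1 library left out, the ranges that crossed 0 were -0.27 to 0.10 for Atf5, -0.33 to 0.0076 for Asns, -0.25 to 0.058 for Pck2, -0.15 to 0.086 for Gars, -0.19 to 0.17 for Mars, -0.091 to 0.16 for Wars and -0.084 to 0.072 for Eprs. The cause of these moves was not tested.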
